A study of Mus musculus with 9 samples.

Results

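SR splicing factor genes were described in primary microglia, the resident immune cells of the brain, as gene sums and as single transcripts. The members were chosen by name, as the 10 genes Srsf1, Srsf2, Srsf3, Srsf4, Srsf5, Srsf6, Srsf7, Srsf9, Srsf10 and Srsf11, out of 54119 genes with a transcript in the deposited table, and they held 85 of its 140948 transcripts. The microglia were shaken off mixed glial cultures from E18 brains of C57BL/6J mice and were treated with control siRNA, Chd8 siRNA or Tsc2 siRNA, with 3 libraries in each group. All groups had the same strain, culture and transfection, and a small interfering RNA (siRNA) lowers the mRNA that it matches without deleting the gene. A replicate is a culture from a separate brain by the methods, which place RNA extraction after 3 days of siRNA. The results text places it after LPS, a bacterial stimulus that the sample labels do not name. The labels give a SMARTER stranded library kit and the methods an Illumina total RNA preparation.

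SR proteins bind exonic sequences of pre-mRNA through RNA recognition motifs and recruit the splicing machinery through a domain rich in arginine and serine, whose phosphorylation sets their activity and place in the cell. Their own pre-mRNAs are spliced into productive, coding transcripts and into transcripts that carry an early stop codon or keep an intron. Transcripts with an early stop ahead of an exon junction are substrates of nonsense-mediated decay (NMD), and several SR proteins lower their own level in this way.

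The stop codons of NMD transcripts are shown because each lies ahead of an exon junction in an isoform that the shares further on count. The sequences come from GENCODE mouse release 21 (GRCm38), read 5′ to 3′ on the sense strand, and each is the run of at most 30 bases of the exon that ends with the stop codon, which is in capitals.
Srsf3-201 (chr17:29039458-29039487, plus strand): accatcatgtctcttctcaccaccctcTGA
Srsf7-203 (chr17:80205054-80205081, minus strand): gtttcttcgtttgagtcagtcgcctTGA
Srsf4-204 (chr4:131884361-131884390, plus strand): gtaacccggttgtctcatgccccagctTAG
Srsf11-206 (chr3:158024209-158024231, minus strand): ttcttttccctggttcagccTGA
Srsf6-201 (chr2:162932937-162932966, plus strand): gccatgacgacagcagccttttgccatTAG
Srsf2-202 (chr11:116852028-116852057, minus strand): ccagaagaagagggagcagtttcttccTAA
The first 4 of these stops lie in exons of 456, 460, 188 and 109 bases that share 0 bases with an exon of a coding transcript of the gene. In Srsf6-201 the exon of 268 bases shares 165 bases with coding exons. In Srsf2-202 the whole exon also occurs in a coding transcript, so its printed run does not set this isoform apart. The stop of Srsf2-202 is 217 bases ahead of the last exon junction. In the other 5 transcripts that distance was between 456 and 706 bases.

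The libraries held between 16913005 and 33213477 estimated counts, so that 3 counts, taken as the floor for counting error only, were 0.0903 to 0.177 CPM (counts scaled to the library total). All other CPM values given were also scaled by TMM factors. The targeted genes were lower under their own siRNA, to an extent that varied between libraries: Chd8 was 86.8, 44.5 and 38.3 CPM in Chd8 siRNA libraries 1 to 3 against 118, 97.4 and 93.6 in control siRNA, and Tsc2 was 24.6, 30.6 and 36.5 CPM in Tsc2 siRNA against 40.8, 39.9 and 38.9. Chd8 siRNA library 1 and Tsc2 siRNA library 3 were each little below the lowest control library. This uneven knockdown limits what an absence of calls further on can show. Of 12 microglia markers 11 passed the count filter, with a summed level of 2642 to 3592 CPM, although the homeostatic markers P2ry12 and Tmem119 did not exceed 2.78 and 1.11 CPM. The 6 astrocyte markers summed to 12.3 to 45.4 CPM in Chd8 siRNA, 10.5 to 49.9 in Tsc2 siRNA and 13.5 to 102 in control siRNA. In the same order of groups, the 5 fibroblast and endothelial markers summed to 13.2 to 20.7, 11.3 to 31.9 and 16.1 to 55.0, and the 5 neuron markers to 2.61 to 9.34, 2.61 to 3.37 and 4.22 to 15.2. The highest sum of each of these 3 lists was in a control siRNA library, and their part in the SR values was not tested. In bulk RNA, fewer cells of a type and less RNA per cell cannot be told apart.

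All 10 genes were detected in all 9 libraries and passed the count filter. On a scale per length (TPM, counts divided by annotated transcript length and scaled to a common total), Srsf5 had the highest level, 51.7 ± 8.21 (SD, n = 9), and was above Srsf2 in 9 of 9 libraries. Srsf2 followed with 28.9 ± 3.53, Srsf11 with 26.9 ± 4.99 and Srsf3 with 21.9 ± 2.41 TPM. The difference between Srsf2 and Srsf11 was smaller than the SD of either gene, while that between Srsf3 and Srsf7 was larger. Srsf7 (16.0 ± 2.08) and Srsf4 (13.2 ± 2.95 TPM) came next, and their difference was below the SD of Srsf4. Srsf1, Srsf6, Srsf9 and Srsf10 lay between 9.37 and 11.8 TPM, and neighbours in this order from Srsf4 down differed by less than their SDs. Some sequence is shared with other genes, so reads could be split between them: the share of 31-base words that also occur in another gene was 41.0% in Srsf4, 23.1% in Srsf2, 14.2% in Srsf5, 13.9% in Srsf3 and lower than that in Srsf10, at most 2.43% in Srsf1, Srsf7 and Srsf11, and 0 in Srsf6 and Srsf9. The partner with the most shared words held few counts beside the SR gene over the 9 libraries, 281 in Gm12992 against 12181 in Srsf4, and 682 in Mettl23 against 21721 in Srsf2. For Srsf11 the partner 5430405H02Rik held 1212 counts against 21158, with 0.322% of the words shared. Summed over the 10 genes, the level was 756 ± 26.2 CPM with control, 740.0 ± 25.8 with Chd8 and 779 ± 9.27 with Tsc2 siRNA (SD, n = 3).

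The classical SR proteins Srsf1 and Srsf2 are general activators of exon inclusion, and Srsf2 is retained in the nucleus. Srsf1 (chr11:88047373-88053755, GRCm38) had 60.6, 50.9 and 54.7 CPM in control siRNA libraries 1 to 3, 52.2, 45.1 and 50.0 with Chd8 siRNA and 50.8, 45.7 and 49.1 with Tsc2 siRNA. The 3 Tsc2 siRNA libraries lay below all 3 control libraries by a small margin, and Chd8 siRNA overlapped control. Srsf2 (chr11:116849901-116853094) had 115, 99.7 and 97.5 CPM in control siRNA libraries 1 to 3, 106, 95.5 and 99.7 with Chd8 siRNA and 108, 105 and 89.4 with Tsc2 siRNA. Its groups overlapped in every comparison, and the highest value of each group was in library 1.

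Srsf3 and Srsf7 also serve as adaptors for mRNA export. Srsf3 (chr17:29032628-29043373) had 93.9, 126 and 105 CPM in control siRNA libraries 1 to 3, 104, 114 and 123 with Chd8 siRNA and 103, 121 and 117 with Tsc2 siRNA. Srsf7 (chr17:80200080-80207307) had 37.7, 46.6 and 48.3 CPM in control siRNA libraries 1 to 3, 45.4, 42.9 and 41.3 with Chd8 siRNA and 45.1, 53.6 and 46.9 with Tsc2 siRNA. Groups overlapped for both genes, and for Srsf3 libraries 1 had the lowest value in each group.

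Srsf4, Srsf5 and Srsf6 are related SR proteins with a second, shorter RNA recognition motif. Srsf4 (chr4:131873617-131901706) had 52.7, 51.5 and 64.7 CPM in control siRNA libraries 1 to 3, 49.5, 56.8 and 54.3 with Chd8 siRNA and 46.2, 57.6 and 73.8 with Tsc2 siRNA, and Tsc2 siRNA had both its lowest and its highest value. Srsf5 (chr12:80945504-80950507) had 169.8, 152 and 146 CPM in control siRNA libraries 1 to 3, 170.1, 138 and 147 with Chd8 siRNA and 175, 175 and 173 with Tsc2 siRNA. The Tsc2 siRNA libraries lay close together above every library of the other groups. Srsf6 (chr2:162931528-162937121) had 76.9, 59.4 and 75.3 CPM in control siRNA libraries 1 to 3, 59.8, 50.3 and 62.7 with Chd8 siRNA and 70.8, 75.2 and 71.0 with Tsc2 siRNA, and Chd8 siRNA library 2 was the lowest of the 9 libraries. All Chd8 siRNA values were below all Tsc2 siRNA values, while they overlapped the control values.

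Srsf9 is a close relative of Srsf1, Srsf10 can act as a splicing repressor, and Srsf11 is known for the inclusion of neuronal microexons. Srsf9 (chr5:115327177-115333080) had 29.6, 19.1 and 21.6 CPM in control siRNA libraries 1 to 3, 28.0, 19.1 and 27.5 with Chd8 siRNA and 28.3, 19.6 and 19.7 with Tsc2 siRNA, the lowest of the 10 genes by CPM. Srsf10 (chr4:135855747-135869908) had 39.4, 44.1 and 50.7 CPM in control siRNA libraries 1 to 3, 32.3, 43.0 and 45.7 with Chd8 siRNA and 40.6, 42.1 and 45.5 with Tsc2 siRNA. Srsf11 (chr3:158010473-158036639) had 107, 81.0 and 92.9 CPM in control siRNA libraries 1 to 3, 105, 106 and 105 with Chd8 siRNA and 100.4, 90.8 and 97.5 with Tsc2 siRNA. Groups overlapped for Srsf9 and Srsf10, while the Chd8 siRNA values of Srsf11 were nearly equal and lay above the 3 Tsc2 siRNA values.

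**Figure D1:**
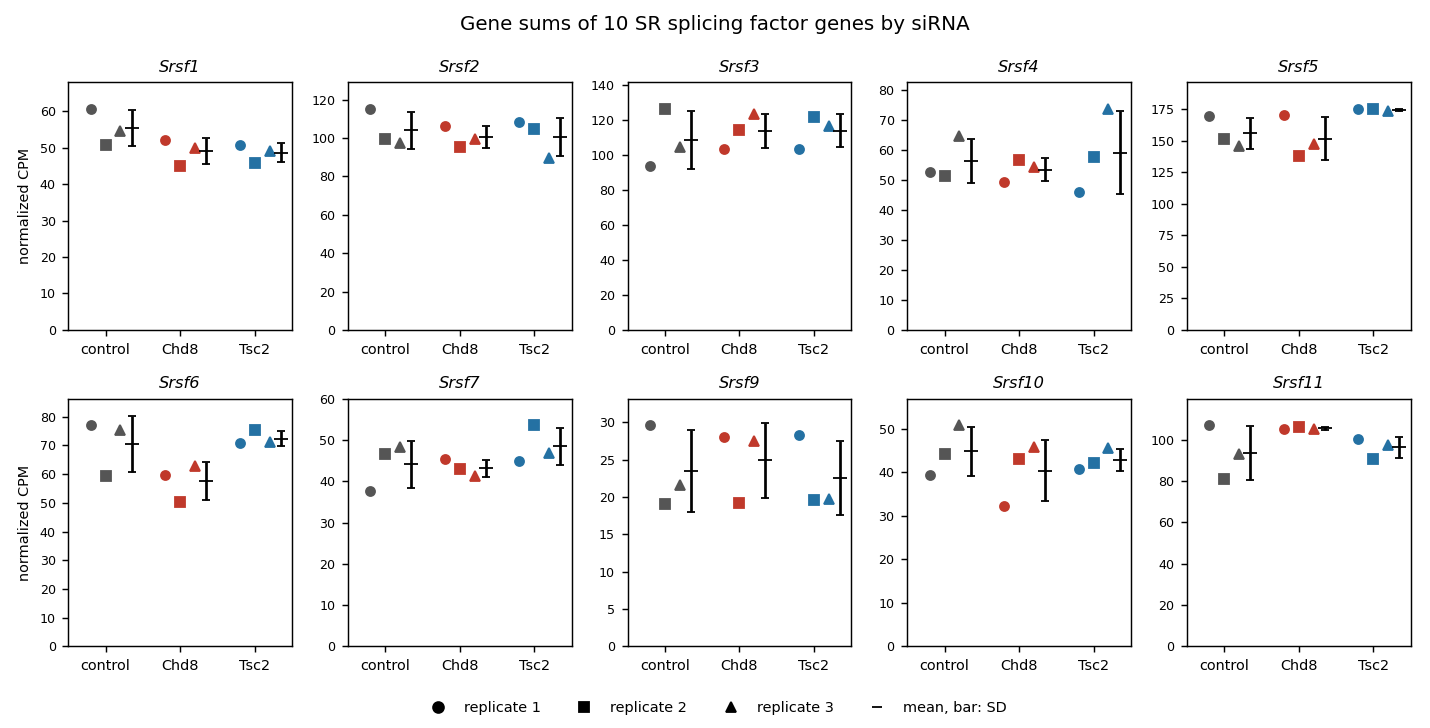
Normalized CPM (y axis, from 0) of the 10 SR genes in control, Chd8 and Tsc2 siRNA libraries, with 1 symbol for each replicate number and the mean with its SD (n = 3) in black. The groups of most genes overlap, and the 3 Tsc2 siRNA values of Srsf5 sit together between 173 and 175 CPM.

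None of the 10 SR genes passed the test after Chd8 siRNA, which addressed whether knockdown of this chromatin remodeller moved the levels of the splicing factors. The test was the quasi-likelihood test of edgeR, adjusted after Benjamini and Hochberg over 16273 genes, and a gene was called at an adjusted p under 0.05 and a fold change of at least 1.5. Of the SR genes 0 of 10 were called, beside 0.0% of all genes (0.535% with the replicate number as a block, where the members' count was also 0), and 0 of 10 had an unadjusted p under 0.05, beside 3.82% of all genes (1 with the block, beside 12.8%). DESeq2's Wald test also called 0, beside 0.0272% of the genes it fitted. The log2 fold changes ran from -0.29 to 0.17 with a median of -0.045, beside -0.018 over all genes, and standard errors were 0.12 to 0.23. Srsf6 was at the low end, with 57.6 ± 6.47 CPM in Chd8 siRNA against 70.5 ± 9.66 in control siRNA (SD, n = 3). Its log2 fold change was -0.29 (95% interval -0.60 to 0.018, edgeR adjusted p = 1.00), and -0.29 with the block (95% interval -0.51 to -0.072, edgeR adjusted p = 0.215). The intervals of 8 of 10 genes lay within a 1.5-fold change in either direction, those of Srsf6 and Srsf9 crossed it, and with the block all 10 lay within it. In 0 of 10 genes did the groups not overlap, beside 9.09% of all genes. Within pairs of the same replicate number, Chd8 siRNA was below control in 3 of 3 for Srsf1, Srsf6 and Srsf10, that is 3 of 10 genes, and above it in 3 of 3 for 0, beside 36.0% of all genes that went one way in 3 of 3 pairs.

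After siRNA against Tsc2, a negative regulator of mTORC1 signalling, 0 of 10 SR genes were called in the same edgeR test, beside 0.0% of all genes (0.387% with the block, members again 0), and 0 of 10 had an unadjusted p under 0.05 with or without the block, beside 2.61% without it and 10.7% with it. DESeq2 called 0 as well, beside 0.0136%. The log2 fold changes ran from -0.19 to 0.16, with a median of 0.038 beside -0.018 over all genes. At the ends stood Srsf1, with 48.6 ± 2.60 against 55.4 ± 4.93, and Srsf5, with 174 ± 0.958 against 156 ± 12.5 CPM (SD, n = 3). Srsf1 had a log2 fold change of -0.19 (95% interval -0.46 to 0.084) and Srsf5 of 0.16 (95% interval -0.10 to 0.43). These were the 2 of 10 genes whose groups did not overlap, beside 8.11% of all genes, and with the block their edgeR adjusted p-values were 0.494 and 0.479. Within pairs of one replicate number, Srsf5 was higher and Srsf1 lower with Tsc2 siRNA in 3 of 3, that is 1 and 1 of 10 genes, beside 31.8% of all genes that went one way. All 10 intervals lay within a 1.5-fold change.

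The direct comparison of Chd8 siRNA with Tsc2 siRNA gave 0 of 10 called genes in edgeR, beside 0.0% of all genes (0.221% with the block, members again 0), with 1 at an unadjusted p under 0.05, beside 3.10% (2 with the block, beside 10.7%). DESeq2 called 0, beside 0.00679%. Srsf6 had the lowest p, with 57.6 ± 6.47 CPM in Chd8 siRNA and 72.3 ± 2.48 in Tsc2 siRNA. This gave a log2 fold change of -0.33 (95% interval -0.64 to -0.018, edgeR adjusted p = 1.00), and -0.34 with the block (95% interval -0.55 to -0.12, edgeR adjusted p = 0.197). Srsf5 had -0.20 (95% interval -0.47 to 0.062) and Srsf11 0.13 (95% interval -0.15 to 0.41). For these 3 genes the groups did not overlap, that is in 3 of 10, beside 8.44% of all genes. Within pairs of one replicate number, Srsf11 was higher and Srsf5 and Srsf6 lower with Chd8 siRNA in 3 of 3, that is 1 and 2 of 10 genes, beside 32.1%. The intervals of Srsf6 and Srsf9 reached past a 1.5-fold change. The 3 comparisons share libraries, so their values are not independent.

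**Figure D2:**
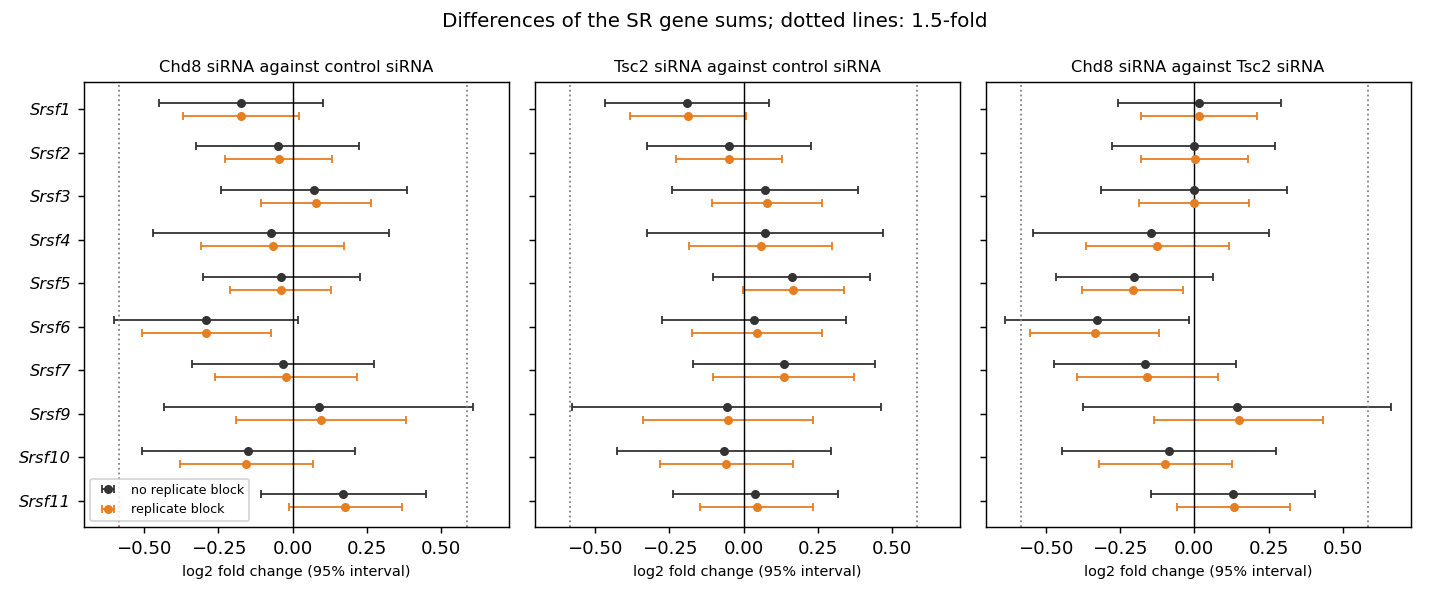
Log2 fold change (x axis) of each SR gene in the 3 comparisons with its 95% interval, from edgeR without the replicate block in dark and with it in orange. The dotted lines mark a 1.5-fold change, and Srsf6 lies farthest below 0 wherever Chd8 siRNA is compared.

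The 85 transcripts comprised 29 coding, 26 retained-intron, 15 NMD and 15 other transcripts by GENCODE type, of which 26, 22, 9 and 8 passed the count filter and 4 had 0 counts in every library. Retained-intron transcripts held a large share of the counts of Srsf11 (41.1% ± 4.37, SD, n = 9), Srsf7 (33.4% ± 4.53), Srsf5 (30.7% ± 2.93) and Srsf3 (25.4% ± 4.79). The shares were 15.5% in Srsf4, 13.6% in Srsf6, 7.39% in Srsf1 and 6.57% in Srsf2, and Srsf9 and Srsf10 have no transcript of this type in the table. Over 4844 genes with a mean of at least 10 counts in the class the median share was 11.6%. The share depends on length, since long transcripts collect more reads, and per length the share was lower, at 16.8%, in Srsf5 and higher, at 22.1%, in Srsf1. Counts of a retained-intron transcript cannot be told apart from those of unspliced precursor RNA.

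**Figure D3:**
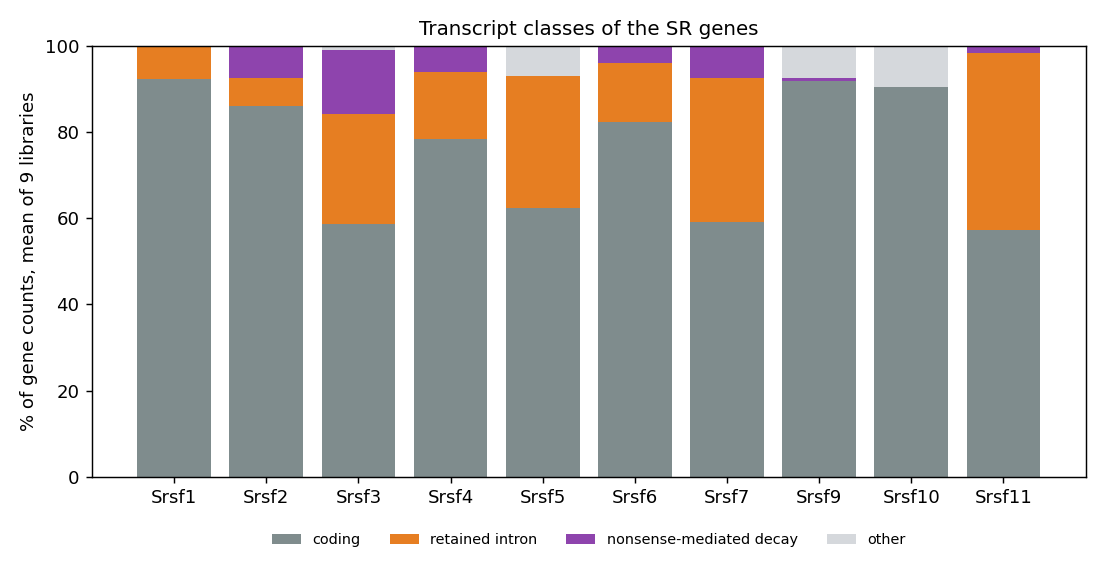
Percent of each SR gene's estimated counts (y axis) in coding, retained-intron, NMD and other transcripts, as the mean of 9 libraries. Coding transcripts hold 57.3% in Srsf11 and 92.4% in Srsf1.

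NMD transcripts held 14.9% ± 3.94 (SD, n = 9) of the Srsf3 counts, the highest share of the 10 genes, nearly all of it in Srsf3-201, the transcript with the exon shown first in the sequences. The shares were 7.36% in Srsf2, 7.36% in Srsf7, 6.09% in Srsf4, 3.95% in Srsf6 and 1.61% in Srsf11, beside a median of 10.4% over 1715 genes with a mean of at least 10 counts in the class. Per length the shares were 17.2% in Srsf3, 14.1% in Srsf4 and 10.1% in Srsf2, so Srsf4 came second on that scale. In Srsf1 and Srsf9 the class averaged under 10 counts, and the only NMD transcript of Srsf5 had 0 counts in all 9 libraries. Assignment of reads limits these values: of the 31-base words of Srsf3-201, Srsf2-202 and Srsf6-201, 0%, 0% and 1.71% occurred in no other transcript. The coding transcript Srsf2-206 is contained whole in Srsf2-202, and both were given 242, 143 and 203 counts in control siRNA libraries 1 to 3, but 0 (Srsf2-206) and 65 (Srsf2-202) in Chd8 siRNA library 3. The NMD share of Srsf2 is therefore uncertain.

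Within the coding class, the main transcript held most of the gene's counts in Srsf9-201 (91.7%), Srsf6-203 (82.3%), Srsf2-201 (79.3%) and Srsf4-202 (78.4%), as the mean share of 9 libraries. Srsf3-202 had 58.8%. Counts were spread over several coding transcripts in the remaining genes, with Srsf1-201 (39.0%), Srsf5-201 (36.2%), Srsf11-202 (35.9%), Srsf7-208 (34.1%) and Srsf10-205 (30.7%) the leading ones by counts. Per length, Srsf1-202 (4.04 TPM) was above Srsf1-201 (3.43), and Srsf10-203 (2.30) and Srsf10-204 (2.15) were above Srsf10-205 (1.77). Srsf5-201, Srsf11-202 and Srsf7-208 led on that scale too. The leading retained-intron transcripts were Srsf7-207 (24.3%), Srsf5-212 (22.0%), Srsf3-204 (16.6%), Srsf4-201 (15.5%), Srsf11-208 (15.2%), Srsf6-204 (13.6%), Srsf2-203 (6.57%) and Srsf1-203 (5.72%). Srsf5-212, the most abundant of them by counts, had 42.3, 33.7 and 32.8 CPM in control siRNA libraries 1 to 3, 40.1, 33.3 and 24.6 with Chd8 siRNA and 44.1, 40.6 and 27.0 with Tsc2 siRNA. Its groups overlapped in every comparison. Srsf3-201 had 13.8, 26.1 and 10.1 CPM in control siRNA libraries 1 to 3, 14.1, 18.3 and 10.1 with Chd8 siRNA and 16.6, 19.6 and 15.9 with Tsc2 siRNA. Its groups overlapped too, and library 2 was the highest of each group.

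Of the 65 SR transcripts that passed the filter, 0 were called in edgeR's test over 41633 transcripts after Chd8 siRNA, beside 0.0% of all transcripts (0.0% with the block), with 2 at an unadjusted p under 0.05, beside 3.32% (2 with the block, beside 5.41%), and 0 called by DESeq2, beside 0.237% of the transcripts it fitted. After Tsc2 siRNA 0 were called, beside 0.0% (0.0% with the block), with 1 at an unadjusted p under 0.05, beside 2.83% (1 with the block, beside 4.48%), and 0 by DESeq2, beside 0.183%. Between Chd8 and Tsc2 siRNA 0 were called, beside 0.0% (0.0% with the block), with 1 at an unadjusted p under 0.05, beside 3.26% (3 with the block, beside 4.49%), and 0 by DESeq2, beside 0.255%. DESeq2 gave an adjusted p to 67 of 81 SR transcripts that it fitted. The median standard error of the log2 fold change was 0.43 for these transcripts in the comparison of Chd8 with control siRNA, against 0.12 to 0.23 for the gene sums, so the transcripts bound a change less closely. Groups did not overlap for 5, 4 and 8 of 65 transcripts in the 3 comparisons, beside 8.77%, 8.39% and 8.48% of all transcripts.

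The transcripts with the lowest unadjusted p are given by value. Srsf11-202, the leading coding transcript of Srsf11, had 29.1, 29.6 and 34.4 CPM in control siRNA libraries 1 to 3, 46.8, 39.2 and 38.7 with Chd8 siRNA and 33.9, 34.7 and 31.7 with Tsc2 siRNA. The 3 Chd8 siRNA values were above all other values, with a log2 fold change of 0.42 (95% interval 0.10 to 0.75, edgeR adjusted p = 1.00) against control siRNA. The retained-intron transcript Srsf7-206 had 1.47, 1.49 and 1.26 CPM in control siRNA libraries 1 to 3, 4.35, 1.42 and 3.92 with Chd8 siRNA and 1.94, 2.02 and 1.17 with Tsc2 siRNA. Chd8 siRNA libraries 1 and 3 were high and library 2 was within the control range, with a log2 fold change of 1.20 (95% interval 0.018 to 2.38, edgeR adjusted p = 1.00) against control siRNA.

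Coding transcripts had the lowest p after Tsc2 siRNA. Srsf5-205 had 2.21, 3.79 and 2.26 CPM in control siRNA libraries 1 to 3, 3.25, 4.26 and 3.17 with Chd8 siRNA and 6.36, 4.85 and 7.15 with Tsc2 siRNA. The Tsc2 siRNA values lay above all others, with a log2 fold change of 1.16 (95% interval 0.35 to 1.96, edgeR adjusted p = 1.00) against control siRNA and -0.78 for Chd8 siRNA against Tsc2 siRNA (95% interval -1.58 to 0.020). Srsf7-205 had 0.625, 1.43 and 0.478 CPM in control siRNA libraries 1 to 3, 0.597, 0.581 and 2.55 with Chd8 siRNA and 1.89, 4.80 and 2.11 with Tsc2 siRNA, with Tsc2 siRNA above control in all libraries and a log2 fold change of 1.80 (95% interval -0.0093 to 3.61, edgeR adjusted p = 1.00). Without control siRNA library 2, the highest of its group, that log2 fold change was 2.40. Srsf5-202 had 33.4, 24.8 and 21.4 CPM in control siRNA libraries 1 to 3, 28.9, 15.9 and 26.0 with Chd8 siRNA and 29.7, 46.9 and 35.8 with Tsc2 siRNA, with Chd8 siRNA below Tsc2 siRNA and a log2 fold change of -0.66 (95% interval -1.30 to -0.023, edgeR adjusted p = 1.00) for Chd8 siRNA against Tsc2 siRNA. Both Srsf5 transcripts hold 0% unique 31-base words, so the split of counts between Srsf5 isoforms rests on combinations of shared sequence.

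**Figure D4:**
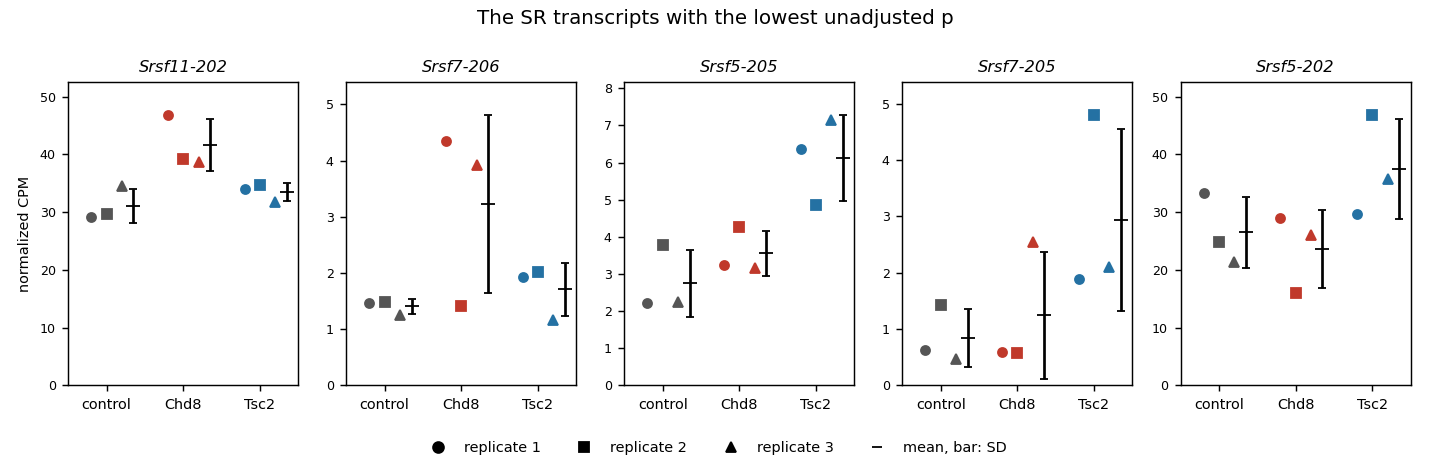
Normalized CPM (y axis, from 0, a scale of its own in each panel) of the 5 SR transcripts with the lowest unadjusted p, by siRNA group and replicate number, with the mean and SD (n = 3) in black. None passed the test, and Srsf5-205 is highest in the 3 Tsc2 siRNA libraries.

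Isoform usage, each transcript's change relative to its gene, was tested with edgeR's diffSpliceDGE over 34218 transcripts at an adjusted p under 0.05. Of the 65 SR transcripts 0 were called after Chd8 siRNA, beside 0.155% of all transcripts, 0 after Tsc2 siRNA, beside 0.117%, and 0 between Chd8 and Tsc2 siRNA, beside 0.202%. With the replicate block the members' counts were again 0, beside 0.0555%, 0.0409% and 0.0584%. At an unadjusted p under 0.05 there were 0, 0 and 0 without the block, beside 2.90%, 2.81% and 3.02%, and 0, 1 and 0 with it, beside 3.18%, 3.13% and 3.29%. limma's diffSplice, added after the data were seen, called 0 in each comparison, beside 0.0%, 0.0263% and 0.0146% of all transcripts, with 4, 2 and 6 of 65 at an unadjusted p under 0.05, beside 5.52%, 5.98% and 6.05%. The retained-intron transcript Srsf3-203 had 99 counts in Chd8 siRNA library 1, 33 in library 3 and 0 in the other 7 libraries. It failed the count filter with all libraries and is not among the 65. Without Chd8 siRNA library 2 it passed the filter through the libraries where it was high, and edgeR then called it between Chd8 and Tsc2 siRNA, the 1 SR transcript called, beside 0.125% of all transcripts, from which nothing can be read.

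Shares of retained-intron and NMD transcripts were compared in the 14 gene classes with a mean of at least 10 counts, 8 of retained introns and 6 of NMD. Two-sided exact permutation tests of 3 against 3 libraries cannot go below p = 0.1, so no share could pass a threshold of 0.05. After Chd8 siRNA the groups did not overlap in 0 of 14, beside 8.9% of all gene classes. The retained-intron share was lower in 6 of 8 genes, with a median difference of -1.87 percentage points beside -0.50 over 4844 genes, and the NMD share in 5 of 6, with a median of -1.60 points beside -0.037. After Tsc2 siRNA the groups did not overlap in 1 of 14, beside 9.33%. The retained-intron share was lower in 4 of 8 genes, with a median difference of 0.46 percentage points beside -0.25, and the NMD share in 6 of 6, with a median of -0.88 points beside 0. The NMD shares of Srsf3 and Srsf11 differed by only -0.025 and -0.062 points. The groups stood apart in the retained-intron share of Srsf3, which was 33.0, 26.2 and 26.7% in control siRNA libraries 1 to 3 and 24.9, 21.6 and 25.3% in Tsc2 siRNA, a difference of -4.69 percentage points (exact permutation p = 0.1). Chd8 siRNA, at 31.3, 17.3 and 22.6%, spanned both groups. Without control siRNA library 1, the highest of the 3, the Srsf3 difference of Tsc2 from control siRNA was -2.51 percentage points.

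Between Chd8 and Tsc2 siRNA the groups did not overlap in 1 of 14, beside 9.42%. The retained-intron share was lower in Chd8 siRNA in 7 of 8 genes, with a median difference of -1.67 percentage points beside -0.25, and the NMD share in 5 of 6, with a median of -0.43 points beside -0.015. The groups stood apart in the retained-intron share of Srsf1, at 6.29, 6.08 and 6.25% in Chd8 siRNA libraries 1 to 3, 7.81, 9.76 and 8.94% in Tsc2 siRNA and 8.77, 6.54 and 6.03% in control siRNA. The difference of Chd8 from Tsc2 siRNA was -2.63 percentage points (exact permutation p = 0.1), and -6.61 per length. The control libraries lay below, within and above the gap between these groups. Over the 10 genes together, retained-intron transcripts held 23.6, 19.4 and 22.2% of counts in control siRNA libraries 1 to 3, 22.7, 19.3 and 19.1% with Chd8 siRNA and 22.8, 20.5 and 22.0% with Tsc2 siRNA. Library 1 was the highest of its group each time. Over all genes the class held 3.31% to 4.21%, also with library 1 the highest of each group, and whether this moved the SR share was not tested.

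NMD transcripts of the 10 genes together held 4.99, 6.50 and 4.11% of counts in control siRNA libraries 1 to 3, 4.01, 5.38 and 3.05% with Chd8 siRNA and 4.97, 4.84 and 4.12% with Tsc2 siRNA, with overlap between all groups. Within replicate numbers 1, 2 and 3, Chd8 siRNA differed from control siRNA by -0.98, -1.12 and -1.06 percentage points in this NMD share, lower in 3 of 3. Over all genes it differed by 0.050, 0.042 and 0.036, higher in 3 of 3. The NMD share of the 10 genes includes Srsf2-202, whose assignment of reads is uncertain. That transcript had 8.90, 8.88 and 8.81 CPM in control siRNA libraries 1 to 3 and 5.38, 9.94 and 2.71 with Chd8 siRNA. The difference in number 3 therefore rests in part on this assignment, and the similar size of the 3 differences cannot be relied on. In the 3 pairs, the retained-intron share of the 10 genes with Chd8 siRNA differed from control by -0.94, -0.094 and -3.17 points. That of all genes differed by -0.24, -0.23 and -0.25, and both were lower in 3 of 3. For Chd8 against Tsc2 siRNA the retained-intron differences were -0.17, -1.12 and -2.96 points in the 10 genes and -0.029, -0.21 and -0.29 over all genes, again lower in 3 of 3, while the NMD differences of the 10 genes went both ways, as did both classes of the 10 genes for Tsc2 against control siRNA. Gene by gene, the share with Chd8 siRNA was below control in 3 of 3 pairs for 1 of 6 NMD classes, beside 12.2% of all genes, and for 2 of 8 retained-intron classes, beside 18.6%. With Tsc2 siRNA it was below control for 1 of 6, beside 11.9%, and 2 of 8, beside 15.3%. Chd8 siRNA was below Tsc2 siRNA for 1 of 6, beside 12.4%, and 3 of 8, beside 16.4%. In that comparison 1 of 6 NMD classes was higher in 3 of 3 pairs, beside 9.45%. With 3 pairs a two-sided exact test cannot pass a threshold of 0.05, so these directions carry no test. The replicate number was taken to pair libraries for gene sums only, while these shares rest on transcript counts.

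**Figure D5:**
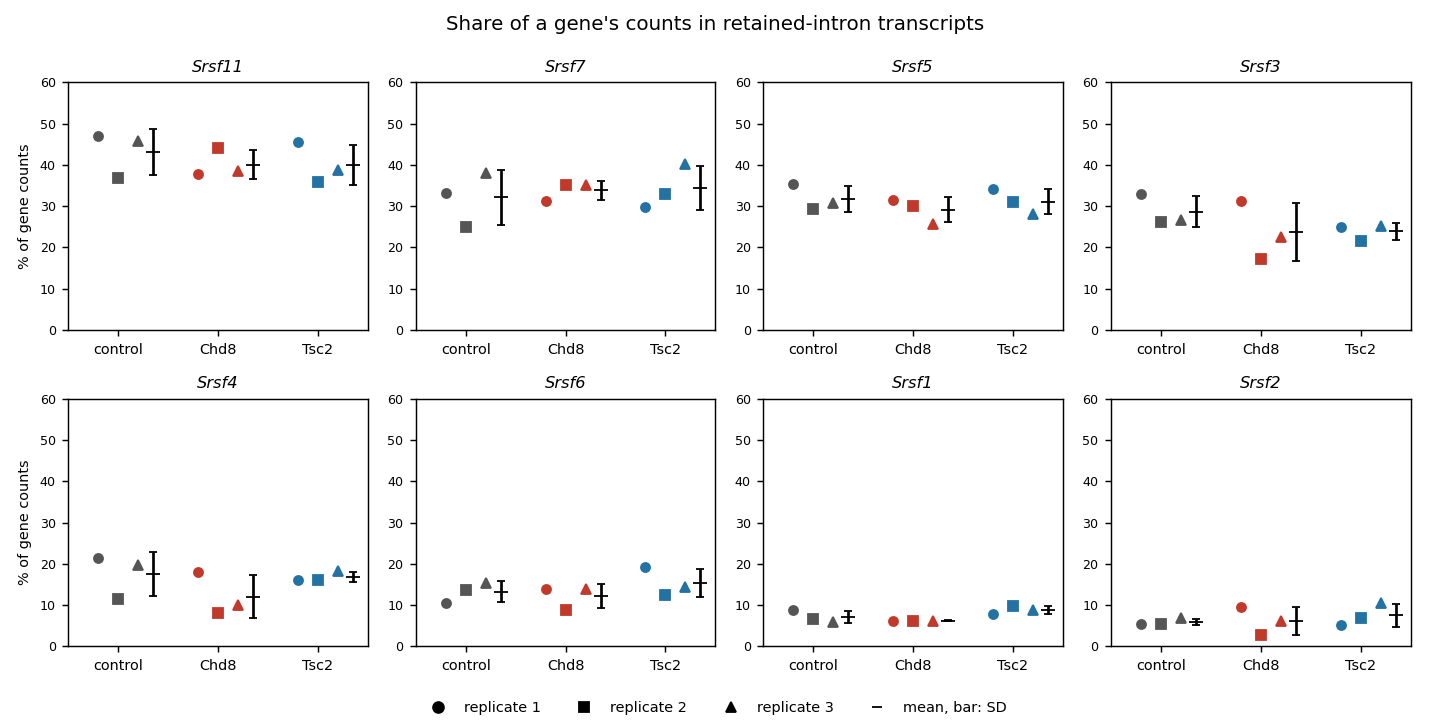
Percent of a gene's estimated counts in retained-intron transcripts (y axis, the same in all panels) for the 8 SR genes with such transcripts, by siRNA group and replicate number, with the mean and SD (n = 3) in black. Srsf11 lies between 35.9% and 47.0%, and Srsf2 between 2.87% and 10.6%.

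Replicate numbers were compared because libraries with the same number moved together across groups. Srsf9 differed between numbers in edgeR's quasi-likelihood F test (adjusted p = 0.0145 over all genes), with 28.6 ± 0.842 CPM in libraries 1, 19.3 ± 0.285 in libraries 2 and 23.0 ± 4.06 in libraries 3 (SD, n = 3). At an adjusted p under 0.05 alone, with no threshold on the fold change, it was the 1 of 10 SR genes to pass, beside 25.0% of all genes. Srsf4 (adjusted p = 0.0606), Srsf10 (0.0659) and Srsf3 (0.0742) came next in the same edgeR test. For Srsf9 the log2 difference of libraries 2 from libraries 1 was -0.57, larger in size than every log2 fold change between siRNA groups among the 10 gene sums.

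Genes of the same pathway were read from the same gene fits. Among other SR and SR-like factors, such as Tra2b and Srrm1, 20 of 21 passed the filter, and 0 were called in any of the 3 comparisons, with or without the block. Their median log2 fold change was -0.027 after Chd8 siRNA and 0.046 after Tsc2 siRNA. The kinases, phosphatases and importer that act on SR proteins (13 of 14 tested, among them Clk1 and Srpk1) gave 0 calls and medians of 0.080 and 0.042. The hnRNP and other RNA-binding proteins (23 of 23, among them Tia1 and Tial1), several of which can act against SR proteins, gave 0 calls and medians of -0.061 and 0.047. The NMD and exon junction factors (15 of 15) also gave 0 calls, with medians of -0.010 and 0.058. Unadjusted p-values under 0.05 in edgeR numbered 0, 1, 1 and 1 in these lists after Chd8 siRNA (1, 3, 4 and 2 with the block). They numbered 0, 0, 0 and 1 after Tsc2 siRNA (0, 0, 2 and 2 with the block). Between Chd8 and Tsc2 siRNA they numbered 0, 0, 1 and 0 (0, 0, 3 and 0 with the block), with medians of -0.019, 0.032, -0.088 and -0.11. Beside these stood 3.82%, 2.61% and 3.10% of all genes in the 3 comparisons (12.8%, 10.7% and 10.7% with the block). Groups did not overlap for 7, 5 and 6 of the 71 tested genes of these lists, beside 9.09%, 8.11% and 8.44% of all genes. Magoh, a core subunit of the exon junction complex, is named after its values were seen. It had 14.9, 14.7 and 12.9 CPM in control siRNA libraries 1 to 3, 17.3, 18.4 and 22.3 with Chd8 siRNA and 18.4, 22.3 and 22.8 with Tsc2 siRNA. Both knockdowns lay above every control library. Its log2 fold change was 0.45 ± 0.17 (SE, edgeR adjusted p = 1.00, 0.191 with the block) after Chd8 siRNA and 0.58 ± 0.17 (edgeR adjusted p = 1.00, 0.117 with the block) after Tsc2 siRNA, against the same 3 control libraries.

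The 10 genes did not share one pattern over the libraries. Pearson's r of a gene's log2 CPM with the mean of the other 9 was between -0.57 for Srsf3 and 0.84 for Srsf6, as a description over 9 libraries. The genes outside the family most like the mean of the 10 were Gm48631 (r = 0.98), Gm5620 (0.97), Nfatc2ip (0.96), Patz1 (0.96) and Mvk (0.95), over the same 9 libraries. They were picked for the highest r, so its size is no test. Gm48631, Gm5620 and Mvk had low levels, with a mean log2 CPM of -1.43, -0.33 and -0.44.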

How the data were processed

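Estimated counts per transcript were deposited by the authors in 1 table, made with Salmon 0.14.1 against mm10 and not normalized, and the annotation release is not given in the sources used here. Of 140948 transcripts, 139852 matched GENCODE mouse release 21 (GRCm38) by Ensembl identifier, which gave names, types and lengths, and the 1096 others (0.27% of counts) stayed in the transcript fits and out of gene sums. Counts were summed to 54119 genes and rounded to whole numbers, and library totals were 16913005 to 33213477.

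Libraries were grouped by the sample labels, 3 in each group. Gene sums (16273 after filterByExpr) and transcripts (41633) were fitted in edgeR 4.0.16 with TMM factors, the siRNA group as the only term in the fit of all 9 libraries, and Benjamini-Hochberg adjustment over the whole table. Called means an adjusted p under 0.05 and at least 1.5-fold. Isoform usage was tested with diffSpliceDGE, and class shares with two-sided exact permutation tests. Alternatives used DESeq2 1.42.0, limma 3.58.1, no filter, DESeq2 size factors, only 2 groups, leaving out libraries and the replicate number as a block. Libraries with the same number deviated together (r 0.24 to 0.52 over 9 pairs of gene sums), so the number was taken to pair them for gene sums, while the labels do not say what it marks. For transcripts the lowest of these correlations was 0.067, under the limit of 0.1. Labels do not say that the cultures are separate, and the methods do. Retained-intron and nonsense-mediated decay classes are those of GENCODE.

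Named transcripts were the most counted of each class per gene, those called in a test, and those with the lowest unadjusted p in each comparison. Members and lists were chosen with earlier results of these data known. The fits were tested on simulated data.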

Additional observations from a re-analysis of the deposited data

How the results depend on the processing

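The counts of called SR genes and SR transcripts were 0 with TMM or DESeq2 size factors, with the filter or without it, in DESeq2's Wald test, in fits of only 2 groups, with the replicate block and without each library in turn. Of 38 single values, 20 kept their direction in every alternative and 18 did not, all of them small differences of gene sums that passed no test. Srsf2 between Chd8 and Tsc2 siRNA turned to 0.0044 in the DESeq2 Wald test, 0.0045 with DESeq2 size factors and 0.00102 with the replicate block, and Srsf3 to 0.0044, 0.0051 and 0.000345 on the log2 scale. The cause was not tested.

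Without 1 library at a time, the log2 fold changes that changed sign ranged as follows. For Chd8 siRNA against control siRNA they were Srsf2 -0.10 to 0.029, Srsf3 -0.022 to 0.20, Srsf4 -0.13 to 0.039, Srsf5 -0.13 to 0.029, Srsf7 -0.13 to 0.038 and Srsf9 -0.037 to 0.29. For Tsc2 siRNA against control siRNA they were Srsf2 -0.10 to 0.033, Srsf3 -0.019 to 0.20, Srsf4 -0.11 to 0.22, Srsf6 -0.069 to 0.11, Srsf9 -0.25 to 0.15, Srsf10 -0.15 to 0.037 and Srsf11 -0.050 to 0.15. For Chd8 siRNA against Tsc2 siRNA they were Srsf1 -0.033 to 0.073, Srsf2 -0.084 to 0.050, Srsf3 -0.069 to 0.058, Srsf4 -0.30 to 0.042 and Srsf10 -0.19 to 0.051. The called isoform usage between Chd8 and Tsc2 siRNA ranged from 0 to 1 transcripts, with Srsf3-203, which failed the filter with all libraries, called without Chd8 siRNA library 2. The gene classes whose groups did not overlap ranged from 0 to 3, 1 to 4 and 1 to 2 of 14 in the 3 comparisons, with the most without control siRNA library 3, without Tsc2 siRNA library 1 and without any of 5 libraries, beside 16.4% to 20.8%, 17.9% to 19.9% and 18.1% to 21.7% of all gene classes under the same omissions.

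With the replicate number as a block, the called SR genes, transcripts and usage stayed at 0, and the log2 fold change of Srsf6 was -0.29 against control siRNA and -0.34 against Tsc2 siRNA. Leaving out 1 library within the block fit, added after the data were seen, also gave 0 called genes and transcripts. With annotated length in the share, the retained-intron difference of Srsf1 between Chd8 and Tsc2 siRNA was -6.61 percentage points.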
